A study of Macaca mulatta with 136 samples.

Results

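The genes described here are 10 members of the bone morphogenetic protein (BMP) system: the ligands BMP2, BMP4, BMP6 and BMP7, the secreted antagonists GREM1, CHRDL1 and NOG, and the receptors BMPR1A, BMPR1B and BMPR2. They were chosen by symbol from the 17727 symbols in the deposited values, and all 10 were found. BMPR1A appeared under a second gene identifier with 0 estimated counts in every library, and the other identifier was used. All 10 passed the filter on low counts in every fit.

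BMPs are secreted ligands of the TGF-beta superfamily. A ligand dimer brings type I receptors, such as BMPR1A and BMPR1B, together with a type II receptor, such as BMPR2, and the activated type I receptor phosphorylates SMAD1, SMAD5 and SMAD9, which enter the nucleus with SMAD4 and induce targets such as the ID genes. Noggin (NOG), gremlin 1 (GREM1) and chordin-like 1 (CHRDL1) bind ligands outside the cell and keep them from their receptors. In the eye the pathway is known for the dorsal to ventral patterning of the embryonic retina, for retinal pigment epithelium (RPE) development and for its links to eye growth.

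RNA was sequenced from punches of 2 mm diameter taken postmortem from both eyes of 2 adult rhesus macaques, RM03 and RM04. The neural retina was separated from the RPE/choroid, meaning the pigmented cell sheet and the vessel-rich tissue behind it, at the macula/fovea, the perimacula, the nasal site and the periphery. The periphery was temporal per the series description, so the nasal site lies on the other side of the macula/fovea. This gave 32 libraries in 8 groups of 4 eyes, and since the 4 eyes came from 2 animals, p-values measure the spread between these eyes. Each value is the sum of a library's deposited estimated counts, 42448903 to 78574055 in all, scaled to TMM-normalized CPM, which corrects for library size, and values of 4 eyes are given in the order RM03 right, RM03 left, RM04 right and RM04 left.

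The tissue labels were checked against marker lists. The summed level of 9 rod genes was 4013 to 28042 CPM in the retina libraries and 50.1 to 924 CPM in RPE/choroid, and that of 6 RPE genes was 126 to 779 CPM in retina and 3666 to 15498 CPM in RPE/choroid. All periphery libraries were sequenced on 1 flow cell and those of the other locations on 2 others, so that the periphery and its flow cell cannot be told apart. In bulk punches, fewer cells of a type and less RNA per cell cannot be told apart either. Levels are compared between samples for each gene and not between genes, since transcript lengths were not used.

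All comparisons of location used edgeR's quasi-likelihood test with the monkey as a covariate, and a gene was called at a Benjamini-Hochberg adjusted p under 0.05 over all genes tested. Fold changes are on the log2 scale with standard errors (SE). In retina, 9 of the 10 BMP genes differed between the macula/fovea and the periphery, 3 higher at the macula/fovea (BMP6, GREM1 and BMPR2) and 6 higher at the periphery (BMP2, BMP4, BMP7, CHRDL1, NOG and BMPR1B). This comparison called 67% of all genes tested, 31% higher at the macula/fovea and 36% higher at the periphery. The median size of the difference was 1.37 over the 10 genes and 0.58 over all genes. In RPE/choroid, 5 of the 10 differed between these locations, BMP2, BMP4, BMP6 and BMPR2 higher at the macula/fovea and GREM1 higher at the periphery. Here 44.1% of all genes were called, 21.2% higher at the macula/fovea and 22.9% higher at the periphery, and the median size was 0.57 over the 10 genes and 0.42 over all genes.

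**Figure D1:**
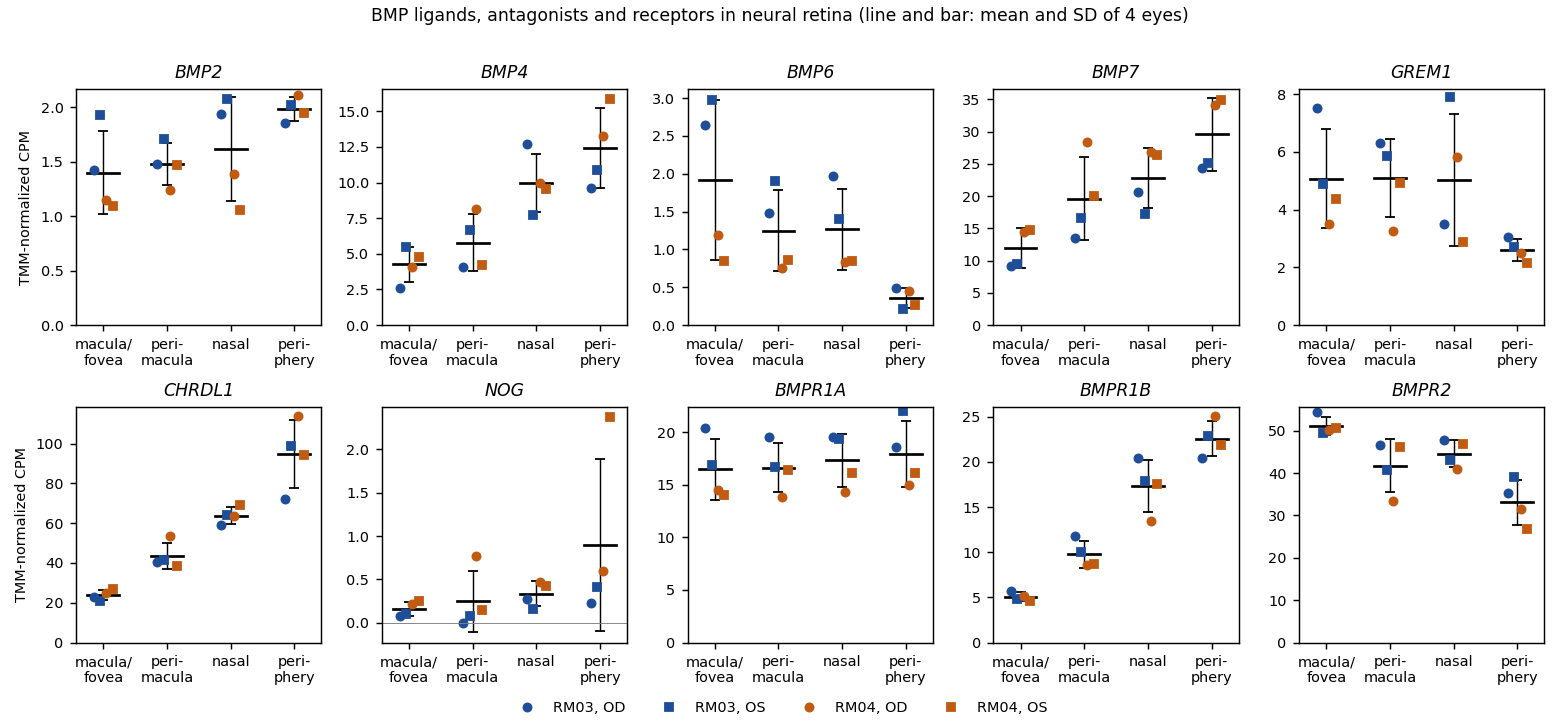
Levels of the 10 BMP genes in neural retina in TMM-normalized CPM (vertical axes, linear, a scale for each gene) at the 4 locations. Points are single eyes (colour for the monkey, shape for the eye) and the line and bar are the mean and SD of 4 eyes. CHRDL1 and BMPR1B rise in the order macula/fovea, perimacula, nasal site and periphery, while BMPR1A stays between 13.8 and 22 CPM.

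**Figure D2:**
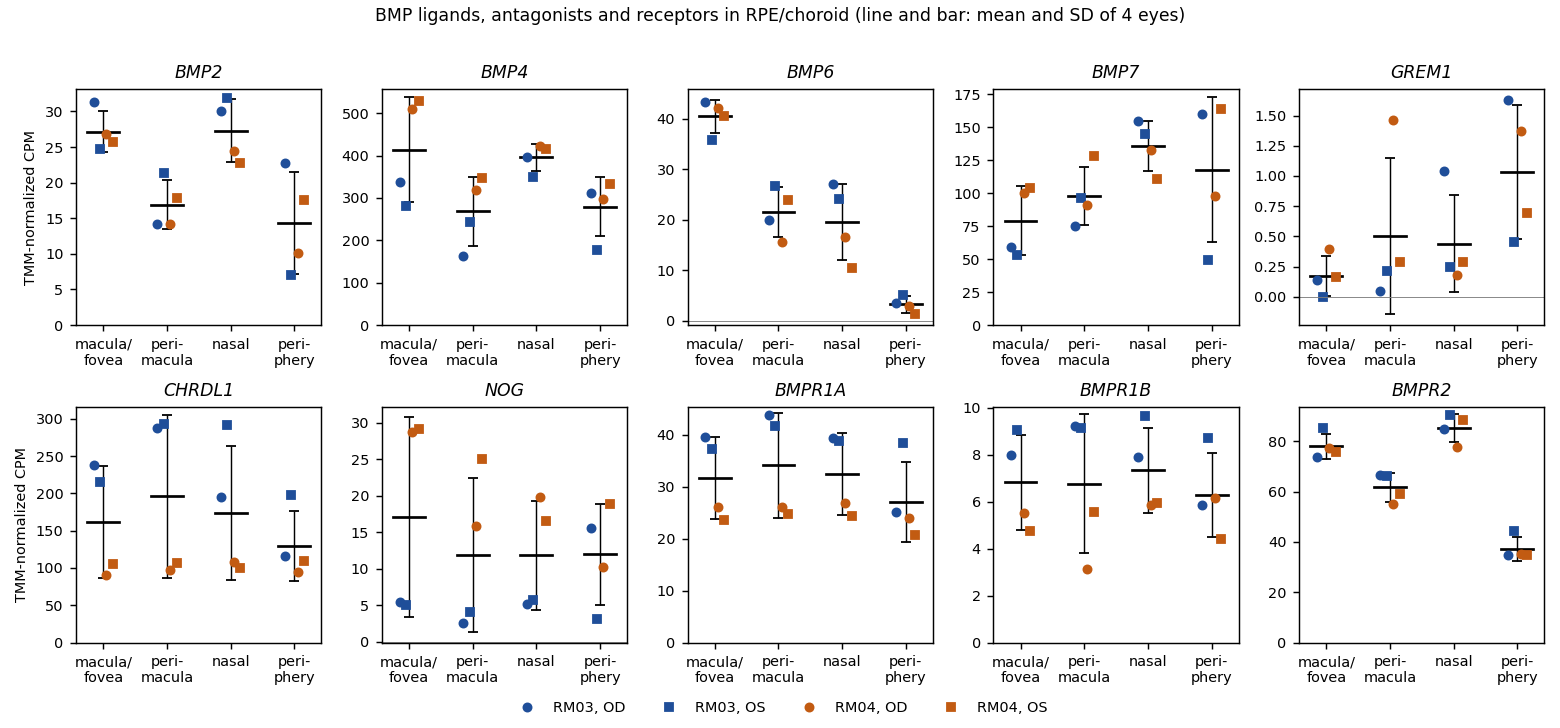
The same plot for RPE/choroid, with a linear scale of TMM-normalized CPM for each gene and the mean and SD of 4 eyes. BMP6 falls from 35.8 to 43.3 CPM at the macula/fovea to 1.29 to 5.21 CPM at the periphery. The eyes of RM03 and RM04 lie apart for CHRDL1, NOG, BMPR1A and BMPR1B at the macula/fovea, perimacula and nasal site.

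BMP6, the ligand also known as a liver signal for iron balance through hepcidin, had the largest difference among the 10 genes between the macula/fovea and the periphery of RPE/choroid. Its level was 43.3, 35.8, 42 and 40.6 CPM at the macula/fovea and 3.6, 5.21, 2.92 and 1.29 CPM at the periphery. The groups did not overlap, and the mean was 40.4 ± 3.3 CPM against 3.26 ± 1.63 CPM (SD, n = 4). The log2 fold change was 3.70 (SE 0.32, edgeR adjusted p = 1.27e-05), a 13-fold difference.

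At the perimacula of RPE/choroid, BMP6 was at 21.5 ± 4.9 CPM and at the nasal site at 19.5 ± 7.48 CPM (SD, n = 4), with means between those of the other locations. The perimacula exceeded the periphery by 2.76 (SE 0.31, edgeR adjusted p = 9.2e-05), and the nasal site exceeded it by 2.59 (SE 0.30, edgeR adjusted p = 1.2e-05). The macula/fovea was above both without overlap, but these differences did not pass over all genes, with 0.94 (SE 0.29, edgeR adjusted p = 0.295) against the perimacula and 1.14 (SE 0.29, edgeR adjusted p = 0.106) against the nasal site. DESeq2 called both, with adjusted p = 0.0489 and 0.00548.

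In retina, BMP6 was at 2.65, 2.98, 1.19 and 0.845 CPM at the macula/fovea and at 0.49, 0.219, 0.446 and 0.272 CPM at the periphery. Every foveal library was above every peripheral one, and the eyes of RM03 were above those of RM04 at the macula/fovea. The difference was 2.30 (SE 0.34, edgeR adjusted p = 8.71e-05), from 15 to 171 estimated counts per library. The change in RPE/choroid was larger than that in retina by 1.49 on the log2 scale (SE 0.45, edgeR adjusted p = 0.00898 for the interaction of tissue and location). Without RM04 right it was 1.13 (adjusted p = 0.123) and without RM04 left 0.95 (adjusted p = 0.112).

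Markers of contractile vessel cells moved with BMP6 in RPE/choroid. The summed level of 7 smooth muscle and pericyte genes was 6483 to 10325 CPM at the macula/fovea and 1069 to 2692 CPM at the periphery, with 6 of the 7 higher at the macula/fovea in the test and none under 0.1 CPM in a whole group. Over the 16 RPE/choroid libraries, which share locations and animals, Pearson's r between log2 levels of BMP6 and this list was 0.94. The sum of 7 ganglion cell genes, at most 379 CPM in RPE/choroid, gave an r of 0.95 with BMP6, and that of 6 fibroblast genes an r of -0.84. The part of these cell types in the difference was not tested.

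BMP4, a ligand that marks the dorsal retina in development, was present mainly in the RPE/choroid libraries. It was at 337, 281, 510 and 529 CPM at the macula/fovea of RPE/choroid and at 2.63, 5.5, 4.1 and 4.79 CPM in the retina above it. The tissues were far apart at every location, with a log2 difference of retina minus RPE/choroid of -6.57 (SE 0.29, edgeR adjusted p = 4.32e-17) at the macula/fovea and -4.50 (SE 0.26, edgeR adjusted p = 1.77e-14) at the periphery.

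In retina, BMP4 was higher at the periphery, where it was at 9.6, 10.9, 13.3 and 15.9 CPM. None of these overlapped the foveal values, and the macula/fovea was lower by 1.47 (SE 0.26, edgeR adjusted p = 0.000316) than the periphery. The nasal site, at 9.97 ± 2.04 CPM (SD, n = 4), was also above the macula/fovea, by a log2 difference of -1.19 for macula/fovea minus nasal (SE 0.26, edgeR adjusted p = 0.00139), within shared flow cells.

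In RPE/choroid, BMP4 was higher at the macula/fovea than at the periphery by only 0.52 (SE 0.18, edgeR adjusted p = 0.0418), with means of 414 ± 124 and 280 ± 69.6 CPM (SD, n = 4) that overlapped. This call was lost with the eye as a block (adjusted p = 0.0568) and without RM03 left, RM04 right or RM04 left (adjusted p = 0.0791, 0.198 and 0.181). BMP4 thus had opposite signs in the tissues, and the difference between the changes was -2.07 for retina minus RPE/choroid (SE 0.33, edgeR adjusted p = 1.38e-05).

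Genes of the RPE marker list were detected in the retina libraries, and their sum changed with location in the same direction as BMP4. The 6 RPE genes summed to 126 to 195 CPM in the foveal retina and to 392 to 779 CPM in the peripheral retina, with 5 of the 6 higher at the periphery in the test. The mean of this sum in retina was 1.27% of that in RPE/choroid at the macula/fovea, 2.55% at the perimacula, 2.72% at the nasal site and 6.74% at the periphery. The corresponding shares for BMP4 were 1.03%, 2.16%, 2.52% and 4.44%. Those for the endothelial marker sum were 2.8%, 4.26%, 4.35% and 7.24%. Those for the smooth muscle and pericyte sum were 2.32%, 3.45%, 3.28% and 7.92%. Pearson's r between log2 BMP4 and the RPE sum was 0.93 over the 16 retina libraries and 0.94 over the 16 RPE/choroid libraries, which share locations and animals. In retina BMP4 also had an r of 0.89 with the Mueller glia sum, 0.81 with the rod sum and -0.86 with the ganglion cell sum. The match was therefore not particular to the RPE list. What part of the retinal BMP4 signal came with RPE transcripts was not tested.

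**Figure D3:**
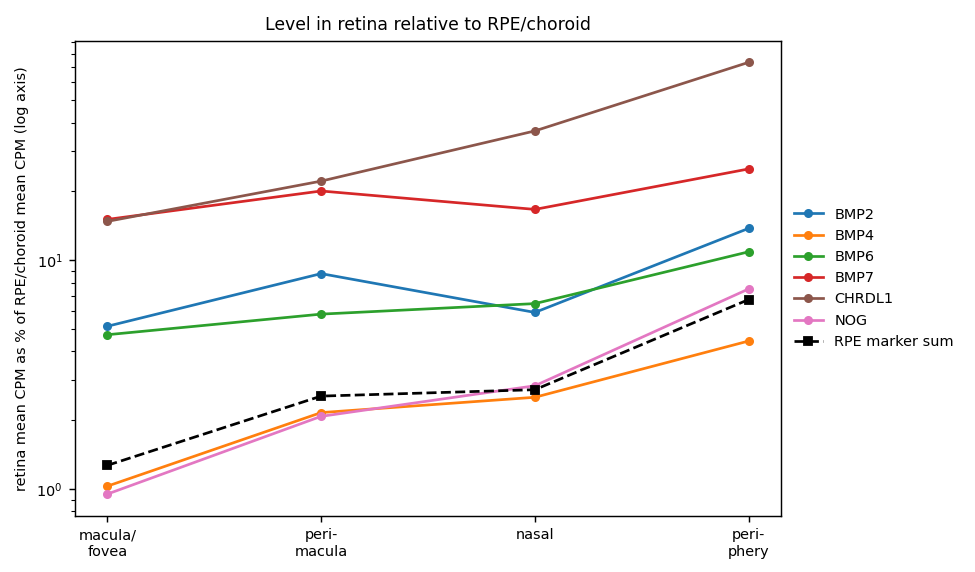
Mean CPM in retina as a percentage of the mean CPM in RPE/choroid (vertical axis, logarithmic) at the 4 locations for the 6 ligands and antagonists that were higher in RPE/choroid at the macula/fovea, with the sum of 6 RPE marker genes as a dashed line. BMP4 and NOG run close to the RPE line, from 1.03% and 0.951% at the macula/fovea to 4.44% and 7.5% at the periphery, and the other 4 genes lie above it.

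BMP7, a ligand needed for early eye and kidney development, was lowest at the macula/fovea in retina by group mean. It was at 9.15, 9.42, 14.5 and 14.8 CPM at the macula/fovea, at 13.5, 16.6, 28.4 and 20 CPM at the perimacula and at 24.3, 25.1, 34.1 and 34.9 CPM at the periphery. The foveal and peripheral values did not overlap, and within each location the eyes of RM04 were above those of RM03. The log2 fold change of macula/fovea minus periphery was -1.27 (SE 0.11, edgeR adjusted p = 9.81e-07), that of macula/fovea minus perimacula was -0.65 (SE 0.11, edgeR adjusted p = 0.000892) and that of macula/fovea minus nasal was -0.91 (SE 0.11, edgeR adjusted p = 7.05e-06). Only the first and the third of these kept their call without the monkey covariate.

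In RPE/choroid, BMP7 was at 79.2 ± 26.4 CPM at the macula/fovea, 97.7 ± 22.2 CPM at the perimacula, 136 ± 18.8 CPM at the nasal site and 118 ± 54.7 CPM at the periphery (SD, n = 4). None of these differed in the test, and the 4 peripheral libraries ranged from 49.2 to 164 CPM. The retinal level was 15.1% of the RPE/choroid level at the macula/fovea and 25.1% at the periphery, above the share of the RPE markers at both. The tissue difference was called at all 4 locations, from -2.71 (SE 0.26, edgeR adjusted p = 3.34e-10) at the macula/fovea to -2.0 (SE 0.25, edgeR adjusted p = 5.37e-08) at the periphery.

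BMP2, a ligand best known for bone formation, was low in retina and higher in RPE/choroid. In RPE/choroid it was at 31.3, 24.7, 26.9 and 25.7 CPM at the macula/fovea and at 22.8, 6.99, 10.1 and 17.5 CPM at the periphery. The groups did not overlap, but the peripheral eyes were spread over more than the foveal ones, and the log2 fold change was 0.91 (SE 0.32, edgeR adjusted p = 0.0374). Without RM04 right the adjusted p was 0.166 and without RM04 left 0.0837.

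In RPE/choroid, BMP2 was at 27.3 ± 4.43 CPM at the nasal site, 27.2 ± 2.88 CPM at the macula/fovea and 16.9 ± 3.45 CPM at the perimacula (SD, n = 4). Neither the macula/fovea nor the nasal site was called against the perimacula in edgeR (adjusted p = 0.47 and 0.187), although the libraries did not overlap. The nasal site exceeded the periphery by 0.91 (SE 0.28, edgeR adjusted p = 0.0173), and the adjusted p was 0.113 without RM04 right.

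In retina, BMP2 was between 1.06 and 2.11 CPM in all 16 libraries, from 62 to 165 estimated counts. Its foveal mean of 1.4 ± 0.382 CPM was below the peripheral mean of 1.98 ± 0.111 CPM (SD, n = 4), with a log2 fold change of -0.47 (SE 0.18, edgeR adjusted p = 0.0333). The groups overlapped, and the call was lost without RM03 right, RM04 right or RM04 left (adjusted p = 0.0732, 0.202 and 0.177). The change in retina was opposite in sign to that in RPE/choroid, with a difference of -1.45 (SE 0.34, edgeR adjusted p = 0.00112), which lost its call without RM04 right (-1.12, adjusted p = 0.0686).

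CHRDL1, an antagonist that binds BMP4 among other ligands and is secreted by astrocytes in the brain, was called in retina between every pair of locations. It was at 22.7, 21.1, 24.9 and 26.9 CPM at the macula/fovea, at 40.5, 41.6, 53.4 and 38.6 CPM at the perimacula, at 58.9, 63.9, 63.5 and 69.2 CPM at the nasal site and at 72.4, 98.9, 114 and 94.3 CPM at the periphery. No library of a location overlapped one of another. The difference of macula/fovea minus periphery was -1.93 (SE 0.12, edgeR adjusted p = 1.3e-07), or 3.82-fold.

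In the order of the CHRDL1 levels, each location was compared with the next. Macula/fovea minus perimacula was -0.81 (SE 0.12, edgeR adjusted p = 0.000422). Perimacula minus nasal was -0.56 (SE 0.11, edgeR adjusted p = 0.0242) and nasal minus periphery -0.55 (SE 0.11, edgeR adjusted p = 0.000751). The difference from perimacula to nasal lost its call without RM03 right, RM03 left or RM04 left (adjusted p = 0.125, 0.128 and 0.25). Between the perimacula and the nasal site, 2 of the 10 BMP genes and 1.49% of all genes were called, and the other was BMPR1B.

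CHRDL1 moved with several marker lists in retina, the glial one among them. The sum of 6 Mueller glia genes was 1763 to 1997 CPM in the foveal retina and 4555 to 6449 CPM in the peripheral retina, with 6 of 6 higher at the periphery in the test and none under 0.1 CPM. Over the 16 retina libraries Pearson's r of CHRDL1 with this sum was 0.99, with the rod sum 0.94 and with the ganglion cell sum -0.97. It was 0.91 with the RPE sum and 0.81 with the endothelial sum. In RPE/choroid the r of CHRDL1 with the Mueller glia sum was -0.75. In retina these lists moved together from centre to periphery, and their part in the CHRDL1 difference was not tested. By a rule set on the correlation of log2 CPM, the genes most like CHRDL1 in retina included SPP1 and LGI4 (r = 0.992 each), out of 12413 genes.

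In RPE/choroid, CHRDL1 did not differ in the test between any of the locations. Its level was 238, 215, 90 and 105 CPM at the macula/fovea and 116, 198, 94 and 109 CPM at the periphery. The eyes of RM03 were above those of RM04 at both, and the means were 162 ± 75.1 and 129 ± 46.5 CPM (SD, n = 4). For macula/fovea minus periphery, the retina change minus that of RPE/choroid was -2.27 (SE 0.44, edgeR adjusted p = 0.000152). Retina minus RPE/choroid was -2.65 (SE 0.33, edgeR adjusted p = 5.02e-08) at the macula/fovea and -0.37 (SE 0.31, edgeR adjusted p = 0.274) at the periphery.

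NOG, the antagonist noggin, was found mostly in RPE/choroid. There it was at 5.4, 5.06, 28.7 and 29.1 CPM at the macula/fovea, at 2.62, 4.14, 15.9 and 25 CPM at the perimacula, at 5.2, 5.74, 19.8 and 16.6 CPM at the nasal site and at 15.6, 3.11, 10.3 and 18.9 CPM at the periphery. The eyes of RM04 were above those of RM03 at the first 3 locations without overlap, while at the periphery the right eye of RM03 lay among those of RM04. No location differed from another in the test, and macula/fovea minus periphery was -0.04 (SE 0.53, edgeR adjusted p = 0.96), but 0.90 (adjusted p = 0.0282) without the right eye of RM03.

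In retina, NOG was near the limit of detection. The foveal libraries held 4, 6, 13 and 15 estimated counts and the peripheral ones 18, 28, 44 and 200, and a perimacular library was at 0. The left eye of RM04 stood above the others at the periphery, with 2.37 CPM against 0.226 to 0.594 CPM. The log2 fold change of macula/fovea minus periphery was -2.30 (SE 0.67, edgeR adjusted p = 0.00908) and -1.69 (adjusted p = 0.0848) without that eye. The mean NOG level in retina was 0.951%, 2.08%, 2.83% and 7.5% of that in RPE/choroid at the macula/fovea, perimacula, nasal site and periphery, beside 1.27%, 2.55%, 2.72% and 6.74% for the sum of the RPE markers. The part of RPE transcripts in the retinal NOG signal was not tested. The genes most like NOG in retina were FDXR (r = 0.923), EEF2KMT (r = 0.904) and SLC6A20 (r = 0.896).

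GREM1, the antagonist gremlin 1, had the opposite tissue pattern. In retina it was at 7.51, 4.89, 3.51 and 4.38 CPM at the macula/fovea and at 3.04, 2.7, 2.51 and 2.16 CPM at the periphery. The lowest foveal library was above the highest peripheral one. The macula/fovea exceeded the periphery by a log2 fold change of 0.98 (SE 0.18, edgeR adjusted p = 0.000445), and the perimacula, at 5.1 ± 1.34 CPM, and the nasal site, at 5.02 ± 2.29 CPM (SD, n = 4), were not called against the macula/fovea (adjusted p = 0.882 and 0.936).

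In RPE/choroid, GREM1 was at 8, 0, 18 and 7 estimated counts at the macula/fovea and at 112, 28, 94 and 51 at the periphery, or 0.176 ± 0.164 and 1.04 ± 0.553 CPM (SD, n = 4). The log2 fold change of macula/fovea minus periphery was -2.95 (SE 0.98, edgeR adjusted p = 0.0316). Without any 1 eye the call was lost, at adjusted p = 0.0712, 0.0866, 0.0539 and 0.0709. The sum of 9 rod genes was 59.3, 51.1, 539 and 133 CPM in the foveal RPE/choroid libraries and 924, 126, 213 and 691 CPM in the peripheral ones. It was higher at the periphery in 3 of 4 eyes and lower in RM04 right, and edgeR called 0 of the 9 genes. The mean GREM1 level in RPE/choroid was 3.47% of that in retina at the macula/fovea and 39.8% at the periphery. These shares were 4.53% and 1.92% for the rod sum and 4.17% and 28.1% for the ganglion cell sum. From macula/fovea to periphery the mean ganglion cell sum fell from 8130 to 580 CPM in retina. In RPE/choroid it fell from 339 to 163 CPM, while GREM1 rose. At the periphery 5 of the 7 ganglion cell genes were called higher in retina and 1 in RPE/choroid. The part of retinal transcripts in this GREM1 signal was not tested. The changes in the tissues differed by 3.51 (SE 1.00, edgeR adjusted p = 0.00575), with retina higher at the macula/fovea and RPE/choroid higher at the periphery.

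BMPR1B, a type I receptor known from limb and cartilage development, was the other gene called between every pair of retinal locations. It was at 5.76, 4.8, 5.16 and 4.59 CPM at the macula/fovea, at 11.8, 9.98, 8.63 and 8.7 CPM at the perimacula, at 20.4, 17.9, 13.5 and 17.6 CPM at the nasal site and at 20.4, 22.9, 25.1 and 21.9 CPM at the periphery. The first 3 locations did not overlap. The difference of macula/fovea minus periphery was -2.10 (SE 0.13, edgeR adjusted p = 1.09e-07), or 4.3-fold.

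Within shared flow cells, BMPR1B at the macula/fovea was below the perimacula by a log2 difference of -0.88 (SE 0.12, edgeR adjusted p = 0.000352) and below the nasal site by -1.73 (SE 0.12, edgeR adjusted p = 1.15e-07). The perimacula was below the nasal site by -0.84 (SE 0.12, edgeR adjusted p = 0.00372), which lost its call without RM03 left or RM04 left (adjusted p = 0.0683 and 0.138). The nasal site was below the periphery by -0.38 (SE 0.12, edgeR adjusted p = 0.0158), which lost its call without RM03 left or RM04 right (adjusted p = 0.0552 and 0.185).

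In RPE/choroid, BMPR1B had group means of 6.83, 6.77, 7.34 and 6.3 CPM at the macula/fovea, perimacula, nasal site and periphery, and no difference between locations was called. The difference of macula/fovea minus periphery was 0.08 (SE 0.22, edgeR adjusted p = 0.8), and the retina change differed from it by -2.27 (SE 0.28, edgeR adjusted p = 4.12e-07). BMPR1B was not called between retina and RPE/choroid at the macula/fovea (-0.39, SE 0.20, edgeR adjusted p = 0.082) and was higher in retina at the perimacula by 0.58 (SE 0.20, edgeR adjusted p = 0.00999), at the nasal site by 1.26 (SE 0.20, edgeR adjusted p = 2.6e-06) and at the periphery by 1.89 (SE 0.20, edgeR adjusted p = 3.86e-09). The call at the perimacula was lost without RM04 right (0.39, adjusted p = 0.0599).

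BMPR1B in retina had an r of 0.93 with both the Mueller glia and the rod sums and of -0.94 with the ganglion cell sum over 16 libraries. The rod sum was 4013 to 4610 CPM at the foveal retina and 23892 to 28042 CPM at the periphery, with 9 of 9 genes higher at the periphery in the test. The ganglion cell sum fell from 7455 to 8473 CPM at the macula/fovea to 362 to 780 CPM at the periphery, with 7 of 7 higher at the macula/fovea. Their part in the BMPR1B difference was not tested. The genes most like it were CDH11 (r = 0.987), KLHL8 (r = 0.979) and MSN (r = 0.978).

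BMPR1A, the other type I receptor of the set, was the gene with no location call in either tissue. Its retinal means were 16.5, 16.6, 17.3 and 17.9 CPM at the macula/fovea, perimacula, nasal site and periphery, and macula/fovea minus periphery was -0.07 (SE 0.11, edgeR adjusted p = 0.578). In RPE/choroid the means were 31.6, 34.1, 32.4 and 27.1 CPM, and the same difference was 0.21 (SE 0.12, edgeR adjusted p = 0.178). BMPR1A was higher in RPE/choroid at all 4 locations, by -0.92 (SE 0.11, edgeR adjusted p = 4.34e-08) for retina minus RPE/choroid at the macula/fovea and by -0.58 (SE 0.11, edgeR adjusted p = 4.35e-05) at the periphery.

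BMPR2, the type II receptor whose loss of function is linked to heritable pulmonary arterial hypertension, was higher at the macula/fovea than at the periphery in both tissues. In RPE/choroid it was at 73.9, 85.2, 77.4 and 75.9 CPM at the macula/fovea, at 66.6, 66.4, 55.1 and 58.9 CPM at the perimacula, at 84.7, 90.3, 77.8 and 88.6 CPM at the nasal site and at 34.7, 44.2, 35.2 and 34.9 CPM at the periphery. The peripheral libraries were below all others. The log2 fold change was 1.06 for macula/fovea minus periphery (SE 0.08, edgeR adjusted p = 6.01e-06) and 1.19 for nasal minus periphery (SE 0.08, edgeR adjusted p = 7.65e-08).

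BMPR2 was the gene called between the perimacula and the nasal site of RPE/choroid, where 3.07% of all genes were called. The difference was -0.48 (SE 0.08, edgeR adjusted p = 0.00782), with the nasal libraries all above the perimacular ones, and the call was lost without RM04 right or RM04 left (adjusted p = 0.0865 and 0.115). Between the macula/fovea and the perimacula it was 0.35 (SE 0.08, edgeR adjusted p = 0.164) without overlap. Pearson's r of BMPR2 with the smooth muscle sum was 0.87 over the 16 RPE/choroid libraries. It was also 0.87 with the sum of amacrine and horizontal cell genes and 0.80 with the ganglion cell sum. With the endothelial sum it was 0.71 and with the melanocyte sum -0.79. The match was not particular to 1 list, and the part of these cells was not tested. The genes most like BMPR2 in RPE/choroid were BPTF (r = 0.977), GORASP2 and FNBP1L (r = 0.974 each).

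In retina, BMPR2 was at 54.3, 49.4, 50.1 and 50.6 CPM at the macula/fovea and at 35.3, 39, 31.4 and 26.7 CPM at the periphery. The groups did not overlap, with a log2 fold change of 0.69 (SE 0.12, edgeR adjusted p = 0.000218). The perimacula, at 41.7 ± 6.24 CPM (SD, n = 4), lay between them, and its differences from both passed narrowly: 0.35 from the macula/fovea (SE 0.12, edgeR adjusted p = 0.0335) and 0.34 from the periphery (SE 0.12, edgeR adjusted p = 0.0285). With the eye as a block these became adjusted p = 0.0512 and 0.0501. The first was also lost without RM03 right, RM03 left or RM04 right, with adjusted p = 0.0843 to 0.172, and the second without RM03 right or RM04 left, with adjusted p = 0.0919 and 0.128. The change was larger in RPE/choroid by 0.44 (SE 0.13, edgeR adjusted p = 0.00929), and adjusted p was 0.0536 to 0.072 without RM03 right, RM03 left or RM04 right.

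**Figure D4:**
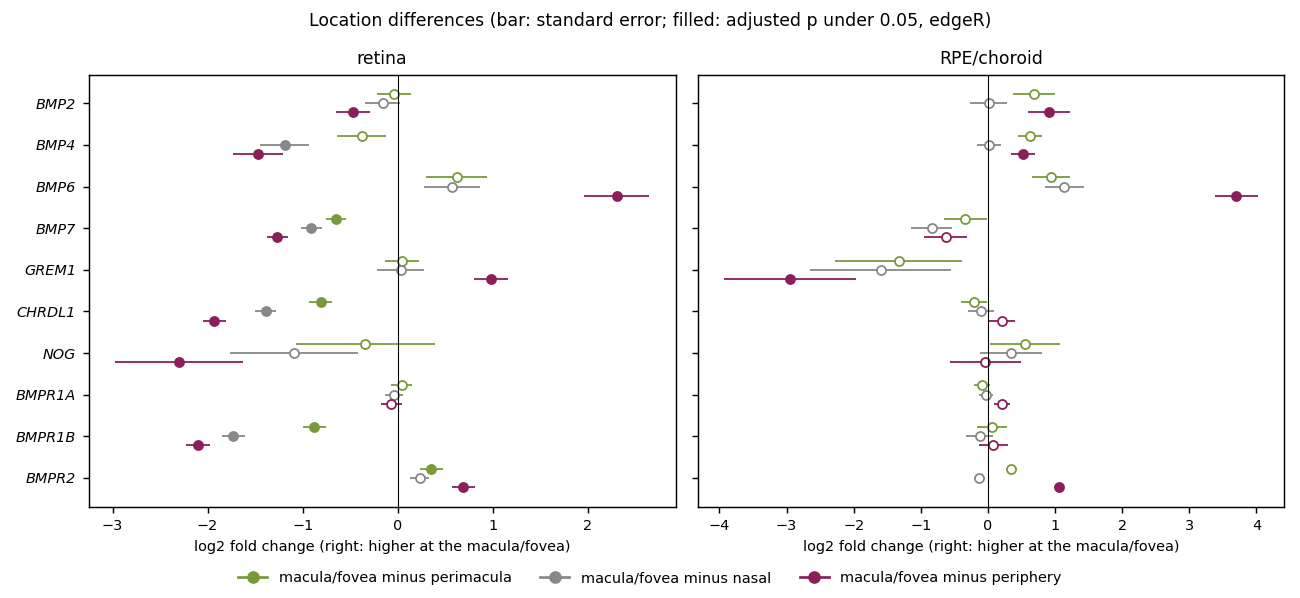
Log2 fold changes of the macula/fovea minus the perimacula, the nasal site and the periphery for the 10 BMP genes in retina and in RPE/choroid, with bars of 1 SE and filled points at an edgeR adjusted p under 0.05. In retina 4 genes are called against the perimacula, 4 against the nasal site and 9 against the periphery. In RPE/choroid 5 are called against the periphery and 0 against the other locations.

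In retina, 4 of 10 were called between the macula/fovea and the perimacula (BMP7, CHRDL1 and BMPR1B lower and BMPR2 higher at the macula/fovea), with 35.2% of all genes called. Another 4 were called between the macula/fovea and the nasal site (BMP4, BMP7, CHRDL1 and BMPR1B, all lower at the macula/fovea), with 52.2% of all genes. Between the perimacula and the periphery 8 of 10 were called, with 50.3% of all genes, and between the nasal site and the periphery 6 of 10, with 48.7% of all genes.

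In RPE/choroid, edgeR called 0 of 10 between the macula/fovea and the perimacula, with 0.0447% of all genes called. At an unadjusted p under 0.05 there were 3 of 10 (BMP4, BMP6 and BMPR2), and DESeq2 called these 3, where 10.7% of all genes had an unadjusted p under 0.05 and DESeq2 called 314, or 2%. Between the macula/fovea and the nasal site edgeR called 0 of 10 and 0.361% of all genes, with 2 of 10 at an unadjusted p under 0.05 (15.5% of all genes) and 1 called by DESeq2 (BMP6), which called 490 genes, or 3.1%. The periphery differed from the perimacula in 2 of 10 (BMP6 and BMPR2), with 34.9% of all genes called, and from the nasal site in 4 of 10 (BMP2, BMP4, BMP6 and BMPR2), with 44.6%. Of these, BMP4 in the nasal comparison was lost without RM03 left, RM04 right or RM04 left (adjusted p = 0.0845 to 0.14).

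The difference of macula/fovea minus periphery itself differed between the tissues for 8 of the 10 genes, with 43.5% of all genes called in this interaction. For 7 of them it was more positive in RPE/choroid, which 24.5% of all genes were, and for GREM1 it was more positive in retina, which 19.1% were. For the change from macula/fovea to the nasal site, BMP4, CHRDL1 and BMPR1B were called, with 23.5% of all genes. For that to the perimacula, BMP4 and BMPR1B were called, with 15.2% of all genes, and BMPR1B was lost without any 1 eye (adjusted p = 0.0686 to 0.0856). BMP4 was lost there without RM03 right, RM04 right or RM04 left (adjusted p = 0.0967, 0.343 and 0.0713), and for the nasal site without RM04 right or RM04 left (adjusted p = 0.101 and 0.0596). CHRDL1 was lost for the nasal site without RM03 right, RM04 right or RM04 left (adjusted p = 0.115, 0.0699 and 0.136). The comparisons share the foveal libraries, so their calls are not independent of each other.

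Between the tissues, 9 of 10 genes were called at the macula/fovea, 10 at the perimacula, 10 at the nasal site and 7 at the periphery. The shares of all genes called were 75.5%, 76.7%, 76.2% and 75.7%. At the macula/fovea 8 of the 10 were higher in RPE/choroid, where 38.4% of all genes were, and GREM1 was higher in retina by 4.83 (SE 0.80, edgeR adjusted p = 5.2e-06). The median size of the tissue difference over the 10 genes was 3.50 at the macula/fovea and 1.94 at the periphery, against 0.98 and 0.95 over all genes. At the periphery GREM1, CHRDL1 and BMPR2 were not called, with log2 differences of 1.32 (SE 0.66), -0.37 (SE 0.31) and -0.17 (SE 0.09).

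**Figure D5:**
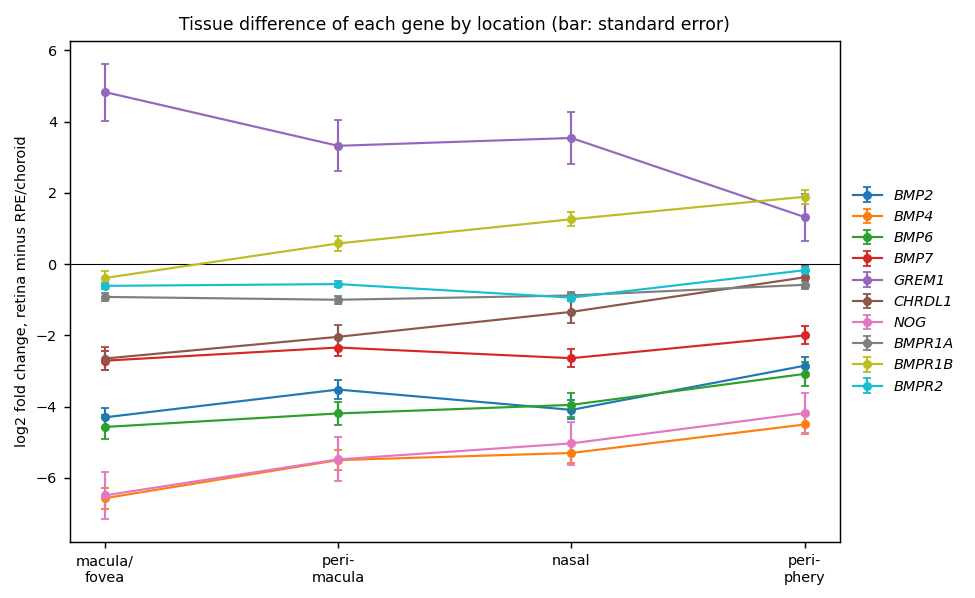
Log2 fold change of retina minus RPE/choroid for each of the 10 BMP genes at the 4 locations, with bars of 1 SE. Values below 0 are higher in RPE/choroid. BMPR1B crosses 0 between the macula/fovea (-0.39) and the perimacula (0.58), GREM1 is above 0 throughout, and CHRDL1 rises from -2.65 to -0.37.

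The monkeys differed for part of the set, and with 1 animal on each side this was not tested as a difference between groups. In RPE/choroid, over the 6 libraries of each monkey from the macula/fovea, perimacula and nasal site, 4 of 10 genes did not overlap between the animals, beside 17.4% of all genes. NOG was at 2.62 to 5.74 CPM in RM03 and 15.9 to 29.1 CPM in RM04, with means 4.8-fold apart. CHRDL1 was at 195 to 293 CPM in RM03 and 90 to 108 CPM in RM04, with means 2.51-fold apart.

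The receptors BMPR1A and BMPR1B were the others, both higher in RM03. BMPR1A was at 37.2 to 43.8 CPM in RM03 and 23.6 to 26.8 CPM in RM04, and BMPR1B at 7.89 to 9.65 CPM and 3.14 to 5.93 CPM. At the periphery, which these ranges leave out, the right eye of RM03 was nearer to RM04 for all 4 genes: BMPR1A was at 25.2 CPM there and at 24 and 20.7 CPM in RM04, BMPR1B at 5.87 CPM and at 6.18 and 4.4 CPM, CHRDL1 at 116 CPM and at 94 and 109 CPM, and NOG at 15.6 CPM and at 10.3 and 18.9 CPM. The left eye of RM03 was at 38.3, 8.72, 198 and 3.11 CPM for these genes. Outside the periphery, the Mueller glia sum in RPE/choroid did not overlap between the animals either. It was 2010 to 2975 CPM in RM03 and 3178 to 4603 CPM in RM04. At the periphery it was 3907 and 1629 CPM in RM03 and 3259 and 5030 CPM in RM04. Over the 16 RPE/choroid libraries its r was 0.92 with NOG, -0.83 with BMPR1A, -0.75 with CHRDL1 and -0.70 with BMPR1B. The RPE sum gave 0.84, -0.64, -0.60 and -0.55 in the same order. The Mueller glia list was not particular to retina. At the macula/fovea its sum was 2522 to 4603 CPM in RPE/choroid and 1763 to 1997 CPM in retina. Of its 6 genes, 3 were called higher in retina there and 2 in RPE/choroid. The part of cell content in these monkey differences was not tested. In retina, BMP6 and BMPR1A did not overlap between the monkeys, beside 8.37% of all genes. BMP6 was 2.32-fold higher and BMPR1A 1.26-fold higher in RM03.

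Other genes of the pathway were described from a list of 79 symbols, 64 of which were found. In retina, 40 of 56 tested were called between the macula/fovea and the periphery, 24 higher at the macula/fovea and 16 at the periphery, against 67% of all genes. Among the secreted antagonists and modulators, 8 of 10 were called, 6 of them higher at the macula/fovea. VWC2, which encodes brorin, a chordin-like antagonist, was at 75.9 ± 12.3 CPM at the macula/fovea and 4.9 ± 1.24 CPM at the periphery (SD, n = 4), a difference of 4.02 (SE 0.30, edgeR adjusted p = 3.8e-07).

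The antagonist chordin (CHRD) and the chordin-family regulator BMPER were higher at the foveal retina as well, by 2.32 (SE 0.26, edgeR adjusted p = 9.56e-06) and 1.91 (SE 0.21, edgeR adjusted p = 6.39e-06). TLL1, a tolloid-like protease that cleaves chordin, was at 20.5 ± 3.12 CPM and 2.63 ± 0.854 CPM (SD, n = 4), a difference of 3.04 (SE 0.28, edgeR adjusted p = 1.61e-06). These 4 genes were also called against the nasal site, with log2 differences of 2.24, 1.95, 2.0 and 0.99 for VWC2, TLL1, CHRD and BMPER.

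Higher at the periphery of the retina were the antagonists DAND5, with -2.13 for macula/fovea minus periphery (SE 0.18, edgeR adjusted p = 1.02e-06), and follistatin (FST), with -2.81 (SE 0.71, edgeR adjusted p = 0.00404) from 16 and 142 estimated counts in the 4 libraries of each location. The ligands INHBA, an activin subunit, and GDF10 followed with -1.80 (SE 0.24, edgeR adjusted p = 3.17e-05) and -1.86 (SE 0.28, edgeR adjusted p = 8.52e-05), and GDF10 was not called against the nasal site (-0.22, edgeR adjusted p = 0.586). The transcription factor genes ATOH8 and HES1, on the list as targets, had -2.69 (SE 0.59, edgeR adjusted p = 0.00157) and -1.79 (SE 0.21, edgeR adjusted p = 1.32e-05). Of the 9 SMADs and their regulators, 8 were called, 7 of them higher at the macula/fovea, with a median of 0.42. Of all genes, 67% were called and 31% were called higher at the macula/fovea. The median size of the difference was 0.47 over these 9 genes and 0.58 over all genes.

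In RPE/choroid, 31 of 58 pathway genes tested were called between the macula/fovea and the periphery, 26 higher at the macula/fovea and 5 at the periphery, against 44.1% of all genes. Of the SMADs and their regulators, 7 of 9 were called, all 7 higher at the macula/fovea, and of the transcriptional targets 10 of 12, 8 of them higher there. SMAD6, an inhibitory SMAD induced by BMP signals, was at 32.3 ± 3.36 CPM and 9.08 ± 2.13 CPM (SD, n = 4), a difference of 1.82 (SE 0.15, edgeR adjusted p = 8.62e-06). SMAD9, a signal-transducing SMAD of the pathway, differed by 1.77 (SE 0.31, edgeR adjusted p = 0.0011).

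Endoglin (ENG), a co-receptor of endothelial cells, was at 684 ± 147 CPM at the foveal RPE/choroid and 218 ± 14.6 CPM at the periphery (SD, n = 4), a difference of 1.62 (SE 0.14, edgeR adjusted p = 1.08e-05). The target genes ATOH8, TBX3 and HEY2 differed by 2.13 (SE 0.24, edgeR adjusted p = 5.36e-05), 1.76 (SE 0.22, edgeR adjusted p = 0.000106) and 1.37 (SE 0.17, edgeR adjusted p = 0.000104). ATOH8 had the opposite direction in retina. The endothelial markers, 7 genes with a sum of 1610 to 2355 CPM at the macula/fovea and 992 to 1365 CPM at the periphery, were 7 of 7 higher at the macula/fovea, and their part was not tested.

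Higher at the peripheral RPE/choroid were TMEFF2, a membrane protein with follistatin-like modules, with -2.06 (SE 0.26, edgeR adjusted p = 0.00012), the antagonist SOSTDC1, at 0.138 ± 0.169 CPM at the macula/fovea and 9.48 ± 7.27 CPM at the periphery, and the ligand BMP3, at 0.0291 ± 0.0582 and 1.71 ± 1.35 CPM (SD, n = 4). BMP3 held 5 estimated counts in the 4 foveal libraries and 449 in the peripheral ones, and SOSTDC1 held 25 and 2496 (edgeR adjusted p = 0.00155 and 0.000561). MSX2, a target gene, was higher at the macula/fovea from 60 and 6 counts (edgeR adjusted p = 0.0111). Against the perimacula and the nasal site edgeR called 0 of the 58, with 12 and 8 at an unadjusted p under 0.05 and 6 and 3 called by DESeq2, beside 10.7% and 15.5% of all genes at that unadjusted p and 2% and 3.1% called by DESeq2.

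Of the remaining genes with a likeness rank, those most like BMP6 were PMEPA1 (r = 0.966), an inhibitor of TGF-beta signals, MCAM and BICRA (r = 0.960 each) in RPE/choroid, out of 12747 genes, and RBPMS2 and PQLC1 (r = 0.945 each) and TMEM132E (r = 0.938) in retina. BMP2 in RPE/choroid was most like MID1 (r = 0.980), CRX (r = 0.974) and MGST1 (r = 0.968). GREM1 in RPE/choroid, at few counts, gave lower values, with ZNF670 (r = 0.858), PMPCB (r = 0.824) and ZNF23 (r = 0.822). Each r is Pearson's over 16 libraries that share 4 locations and 2 animals.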

How the data were processed

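Poly-A RNA-seq of retina and RPE/choroid punches was assigned by the authors, lane by lane, to Mmul_8.0.1 with Salmon 0.13 and summed with tximport as length-scaled TPM. The deposited column is headed TPM but was read as estimated counts, since its sums differ between the 136 lanes, from 7932259 to 39439054. Lanes of a library are technical runs, and they were summed and rounded here. Each lane lists 19432 entries with 19422 identifiers, and each member was used under the identifier that carried its counts.

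The members and all gene lists were chosen with earlier results of these data known. Groups came from the labels. Tests used edgeR 4.0.16 in R 4.3.3 (limma 3.58.1): TMM factors, filterByExpr with its minimum count set to 10, a quasi-likelihood fit, and the monkey as covariate. The macula/fovea, perimacula and periphery of a tissue were fitted together (15380 genes in retina, 15674 in RPE/choroid), those with the nasal site used a fit of all 4 locations, and comparisons of tissues and interactions from a fit of all 32 libraries (16382 genes). The test was tried on simulated data with 200 changed genes at a log2 change of 1.5, of which it recovered 90% with the retina design, 72.5% with the RPE/choroid design and 78% with the design of all libraries. By the labels, same-numbered libraries come from the same eye, which pairs them. Deviations from the location means had a mean r of 0.561 within an eye in retina (lowest 0.172) and 0.387 in RPE/choroid (lowest 0.177). Between fellow eyes the mean r was 0.555 and 0.403, so the values do not separate the eye from the monkey. Libraries of the same monkey showed 14.2 times the counting variance at the median and 4.51 times at the lowest, so none was a repeat of another.

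Named pathway genes are the 10 with the largest change among those called with a log2 change above 1 between the macula/fovea and the periphery, and genes of like pattern are the 3 with the highest Pearson r, of which 1 is not reported here. The alternatives were DESeq2 1.42.0, RLE factors, all genes without a low-count filter, a floor of 10 counts in each library, a block for the eye, a fit with no covariate, fits of the compared groups alone, the nasal libraries included, CPM over the plain library sum, entries of a symbol summed, and leaving out each eye. Python 3.11.15 with pandas 2.3.3, scipy 1.17.1 and matplotlib 3.10.9 made the tables and plots. No sequences are shown, and coordinates are not used here. Counting precision limits NOG in retina and GREM1 in RPE/choroid.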

Additional observations from a re-analysis of the deposited data

Results flagged for a closer look

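Of 80 groups of 4 eyes, 3 had an eye far from the others, where chance alone flags about 5% of groups. GREM1 reached 1.46 CPM in the right eye of RM04 at the perimacula of RPE/choroid, against 0.048 to 0.288 CPM in the others, and 1.04 CPM in the right eye of RM03 at the nasal site, against 0.182 to 0.29 CPM. BMPR2 reached 44.2 CPM in the left eye of RM03 at the periphery of RPE/choroid, against 34.7 to 35.2 CPM. That library also held the highest Schwann cell, smooth muscle and fibroblast sums of its group, 13828, 2692 and 10023 CPM. Its RPE sum was the lowest, 3666 CPM. Over the RPE/choroid libraries BMPR2 had an r of -0.64, 0.87, -0.73 and 0.26 with these 4 lists. Their part in the BMPR2 value was not tested.

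Of 30 tests of whether a location change differed between the tissues, 13 passed in edgeR. Of all genes, 43.5% passed for the periphery, 23.5% for the nasal site and 15.2% for the perimacula. All values are the log2 change, macula/fovea minus the other location, in retina minus that in RPE/choroid. For macula/fovea minus periphery these were -1.45 for BMP2, -2.07 for BMP4, -1.49 for BMP6, 3.51 for GREM1, -2.27 for CHRDL1, -2.31 for NOG, -2.27 for BMPR1B and -0.44 for BMPR2. For macula/fovea minus nasal they were -1.27 for BMP4, -1.31 for CHRDL1 and -1.65 for BMPR1B. For macula/fovea minus perimacula they were -1.07 for BMP4 and -0.97 for BMPR1B. The value for NOG was -1.47 (edgeR adjusted p = 0.265) without the left eye of RM04, and its call was also lost without the left eye of RM03 (-2.28, adjusted p = 0.0891), without the right eye of RM04 (-1.98, adjusted p = 0.0807) and without the monkey covariate (-2.95, adjusted p = 0.0644).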

How the results depend on the processing

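Of 190 log2 fold changes of the 10 genes, 94 were called, and 66 of these calls held under every alternative run. Of 2123 alternative values, 87 lost a call, 34 gained one in the same direction and 1 was called in the opposite direction, and 66 values that were called in neither setting changed sign and were counted as unchanged. RLE normalization and the fit without a low-count filter lost 0 calls, and DESeq2 lost 0 and gained 7. The floor of 10 counts in each library lost 0 of the calls that it could test. It left out NOG in retina and GREM1 in RPE/choroid, each with 0 counts in a library. Both were also left out of its fits of all libraries, so their calls there could not be lost. With the eye as a block 3 calls were lost, BMPR2 in retina between the macula/fovea and the perimacula (adjusted p = 0.0512) and between the perimacula and the periphery (0.0501) and BMP4 in RPE/choroid between the macula/fovea and the periphery (0.0568), and GREM1 between the tissues at the periphery was gained (0.0489). The block changed no other call.

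Without the monkey covariate 18 calls were lost. Over all genes, calls between the perimacula and the nasal site fell as well, from 231 to 29 in retina and from 484 to 53 in RPE/choroid. Those of the interaction for the perimacula fell from 2494 to 1641. Ranges over all genes are given in the last paragraph. The number of the 10 genes called fell to 2 (retina, macula/fovea and perimacula), 5 (retina, perimacula and periphery), 1 (retina, perimacula and nasal), 3 (RPE/choroid, macula/fovea and periphery) and 0 (interaction, perimacula), and less far, by 1 or 2 genes, to 7 in retina between the macula/fovea and the periphery, 5 in retina and 3 in RPE/choroid between the nasal site and the periphery, 9 between the tissues at the perimacula, and 2 and 6 in the nasal and peripheral interactions. With the compared groups alone it was 7 in retina and 1 in RPE/choroid between the macula/fovea and the nasal site, and in RPE/choroid 4 between the macula/fovea and the perimacula, 2 between the macula/fovea and the periphery, 3 between the perimacula and the nasal site and 2 between the nasal site and the periphery, and 5 in the nasal interaction. DESeq2 called 3, 1 and 2 in RPE/choroid between the macula/fovea and the perimacula, the macula/fovea and the nasal site, and the perimacula and the nasal site. Over all genes, these 3 comparisons called 7, 57 and 484 in the main fit. The compared groups alone gave 357, 346 and 1677, and DESeq2 gave 314, 490 and 1247.

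Leaving out each eye in turn gave, in retina, 5 to 8 genes between the perimacula and the periphery, 0 to 2 between the perimacula and the nasal site and 3 to 7 between the nasal site and the periphery. In RPE/choroid it gave 2 to 5 between the macula/fovea and the periphery, 0 to 1 between the perimacula and the nasal site and 2 to 4 between the nasal site and the periphery. The interactions gave 0 to 2 for the perimacula, 1 to 3 for the nasal site and 4 to 8 for the periphery. Calls over all genes between the perimacula and the nasal site also fell in these runs. They went from 231 to between 14 and 66 in retina and from 484 to between 19 and 195 in RPE/choroid. NOG in RPE/choroid between the macula/fovea and the periphery ran from -0.46 to 0.90 and was called with the opposite sign of the fit with all eyes without the right eye of RM03. The cause of these changes was not tested.

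Over all genes, the calls between the macula/fovea and the perimacula of RPE/choroid were 7 in edgeR and 0 to 357 under the alternatives, those between the macula/fovea and the nasal site 57 and 0 to 490, and those between the perimacula and the nasal site 484 and 19 to 1677. In retina those between the perimacula and the nasal site were 231 and 14 to 785, and those between the macula/fovea and the perimacula 5416 and 3225 to 6303. Those between the perimacula and the periphery of RPE/choroid were 5471 and 3314 to 6151, and those of the interactions 2494 and 867 to 3075 for the perimacula and 3853 and 2510 to 4737 for the nasal site. Of the pathway genes, 0 were called in retina between the perimacula and the nasal site and 5 by DESeq2, and in RPE/choroid 4 and 0 to 11. Of 80 mean levels, 2 moved by more than 1 SD with CPM over the plain library sum, both at the nasal RPE/choroid: BMP4 to 362 and BMPR2 to 78.2 CPM.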
